A study of Mus musculus with 2 samples.

Results

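Defa17, Defa21, Defa22 and Defa24 are 4 of the 32285 features in a single-cell RNA data set of mouse colon tumours. They were picked by symbol after their high counts in some cells of these libraries were known, so their level is described here and supports nothing by itself. Another 18 features carry a symbol that starts with Defa. In each library the 4 genes held most of the UMIs (unique molecular identifiers, each standing for 1 captured transcript) of all these features, 70.3% in the KO library and 78.8% in the WT library.

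Alpha-defensins are small, cysteine-rich peptides that damage bacterial membranes. In mice, where they are also called cryptdins, Paneth cells at the base of small intestinal crypts pack them into granules together with lysozyme, and the protease matrilysin (Mmp7) cuts the active peptide out of its precursor. The normal mouse colon has deep crypt secretory cells in place of Paneth cells, and cells with Paneth features are known from inflamed and neoplastic colon.

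The KO library came from tumours of mice labelled Gsk3b (IEC-/-), whose intestinal epithelial cells lack the kinase gene Gsk3b, and the WT library from mice labelled Gsk3b (IEC+/+), which keep it. Tumours of both groups were induced with AOM/DSS, the carcinogen azoxymethane followed by the colitis agent dextran sulfate sodium. The driver of the deletion, the age of the mice and the number of animals per library are not given in the sources used here. With 1 library per genotype no difference between genotypes has a replicate check, no test was run, and library and genotype cannot be told apart.

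The KO library held 156641780 UMIs, of which 10546 cells were kept, 4305 of them epithelial, and the WT library held 164574326 UMIs, with 9892 cells and 4457 epithelial cells. The median cell had 3438.5 UMIs in the KO library and 5164 UMIs in the WT library. Gsk3b stood at 241 CPM (UMIs of the gene per 1e6 UMIs of the class) in KO and 264 CPM in WT epithelial cells, a log2 ratio of -0.13; tags at the 3' end check no deletion whose position is not given. The libraries shared 35 cell barcodes, and in 0 of these did the 4 genes reach 1% of the UMIs.

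All 4 genes lie on the plus strand of chromosome 8 (GRCm38, the mm10 build) with 2 exons each. Defa21 spans 21025545 to 21026516, Defa22 21162277 to 21163249, Defa17 21655780 to 21656735 and Defa24 21734494 to 21735471. Their likeness limits what a short read can tell, so the last 120 bases of each coding sequence (coding positions 163 to 282, stop codon included, from GENCODE vM21 transcripts) are shown, with capitals at the 46 positions where the 4 are not all alike.
Defa17: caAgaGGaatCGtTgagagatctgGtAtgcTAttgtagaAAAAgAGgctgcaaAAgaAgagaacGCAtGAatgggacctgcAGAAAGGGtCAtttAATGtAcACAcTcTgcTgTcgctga
Defa21: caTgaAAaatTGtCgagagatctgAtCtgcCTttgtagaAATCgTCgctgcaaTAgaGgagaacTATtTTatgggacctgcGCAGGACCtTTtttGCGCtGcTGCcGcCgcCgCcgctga
Defa22: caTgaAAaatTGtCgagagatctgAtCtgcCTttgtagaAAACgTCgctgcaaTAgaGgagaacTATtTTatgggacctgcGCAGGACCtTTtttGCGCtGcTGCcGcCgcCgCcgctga
Defa24: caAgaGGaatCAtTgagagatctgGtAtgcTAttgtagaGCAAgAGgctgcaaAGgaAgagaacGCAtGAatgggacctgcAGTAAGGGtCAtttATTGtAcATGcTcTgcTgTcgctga
Defa21 and Defa22 differed at 1 of these 120 bases and at 3 positions of the whole transcript (99.3% identity), whereas Defa17 and Defa24 differed at 8 of them. Between these pairs, 40 to 46 of the 120 bases differed. Of all stretches of 91 bases in the Defa17 transcript, 90.9% also occur in another defensin transcript, all of them in Defa3. The share was 44.8% for Defa21, 44.7% for Defa22 and 0.0% for Defa24. A read from a shared stretch cannot be given to 1 gene, so the counts of Defa17, Defa21 and Defa22 are uncertain and levels are best compared within a gene.

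The RefSeq promoter table holds entries for 2 of the 4 genes, and those of Defa21 and Defa22 are identical over 300 bases (0 differences). The shared sequence is printed because it shows how far the pair is alike; it runs from 250 bases before the start of transcription to 50 bases into the gene, at chr8:21025295-21025594 for Defa21 (GRCm38.p6, plus strand). Capitals mark CTTTGAT, the core that the Wnt-activated TCF/LEF factors recognise, here read on the other strand as ATCAAAG, and TATAAA, the core of the TATA box.
Defa21 and Defa22: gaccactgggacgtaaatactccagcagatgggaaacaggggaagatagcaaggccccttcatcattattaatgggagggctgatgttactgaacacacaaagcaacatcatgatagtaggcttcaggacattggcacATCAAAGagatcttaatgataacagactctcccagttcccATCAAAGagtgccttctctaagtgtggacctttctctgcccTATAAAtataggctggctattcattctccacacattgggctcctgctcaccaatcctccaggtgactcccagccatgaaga
CTTTGAT starts 112 and 72 bases before the start and TATAAA 31 bases before it. On either strand CTTTGAT was found in 13 of the 16 Defa promoters in the table and in 3.73% of all 32851 promoters. TATAAA was found in 15 of the 16 and in 13.6% of all promoters, and the 2 motifs share no base in this window. Promoters of like sequence, such as this identical pair, are not separate observations, and use of the motifs was not tested.

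Nearly all alpha-defensin UMIs in cells lay in the epithelium, and most lay in 1 small group of it. Within the epithelial class, clustering that left out every feature named Defa gave a subcluster led by Lyz1, Gm15293 (a defensin gene, Defa41 in RefSeq), Ang4, Clps and Itln1, which is called Paneth-like here from 5 fixed markers. It held 163 KO cells, 3.79% of KO epithelial cells (3.24 to 4.40), and 250 WT cells, 5.61% (4.95 to 6.33). These and all later intervals are 95% intervals for counting error only. Lysozyme (Lyz1) stood at 37336 CPM in KO and 31488 CPM in WT Paneth-like cells, against 221 CPM in KO and 199 CPM in WT other epithelial cells. Mmp7, the processing enzyme, stood at 5551 CPM in KO and 6387 CPM in WT Paneth-like cells. The leukocyte gene Ptprc was at 23.3 CPM in the KO and 15.6 CPM in the WT subcluster. Mptx2, another fixed marker and in the normal small intestine a Paneth cell product, stood at 4.90 CPM in KO (21 UMIs) and 12.2 CPM in WT (54 UMIs) cells of the subcluster. In WT this marker was higher elsewhere, at 28.6 CPM in other epithelial cells and 49.9 CPM in free RNA, against 0.033 CPM in KO other epithelial cells. Gm15293 and 4 other defensin genes with Gm symbols were not left out of the clustering, so the subcluster is not fully independent of defensin RNA.

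In the KO library this subcluster held 108059 of the 124068 member UMIs in cells, 87.1%, though it was 1.55% of cells. In the WT library it held 163070 of 191907, 85%, and was 2.53% of cells. The whole epithelial class held 97.4% of the UMIs in KO cells and 97.5% in WT cells. By gene, the Paneth-like share ran from 80.0% for Defa21 to 88.6% for Defa22 in the KO library, and from 84.4% for Defa21 to 85.3% for Defa22 in the WT library.

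**Figure D1:**
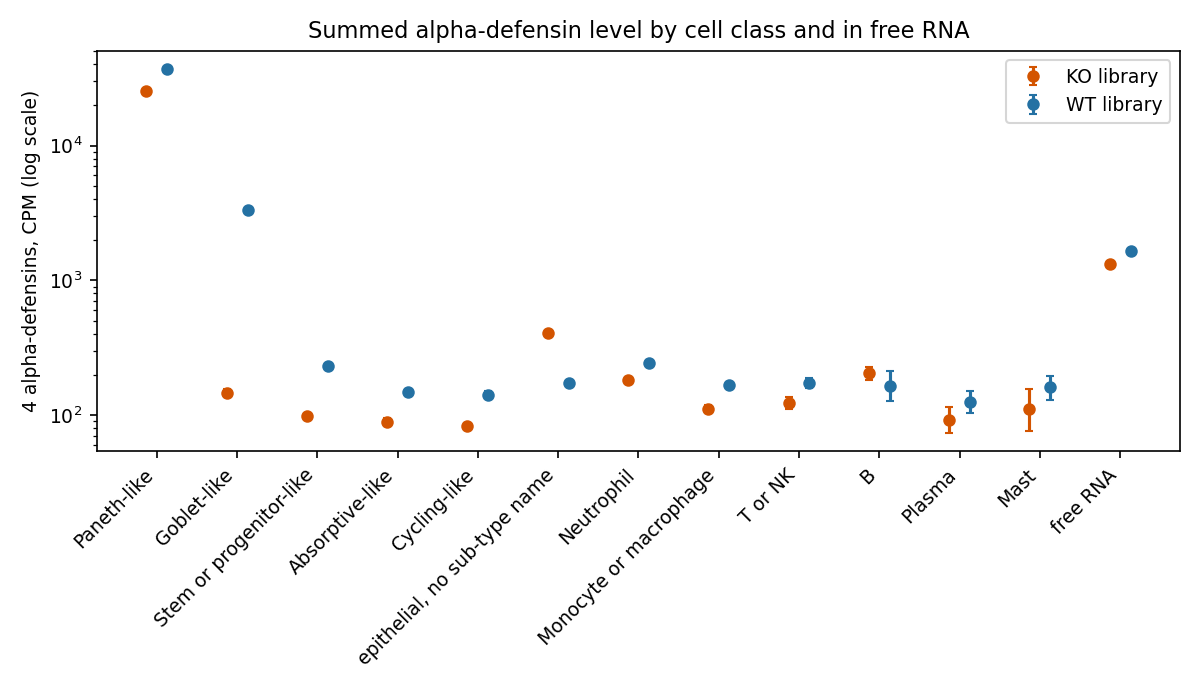
Summed level of the 4 alpha-defensins (CPM, log scale) in each cell class and in free RNA, with exact 95% Poisson intervals for counting error, KO left of WT. Paneth-like cells stand at 25210 CPM (KO) and 36778 CPM (WT), free RNA at 1326 and 1645 CPM, and neutrophils at 183 and 246 CPM; goblet-like cells of the WT library stand at 3310 CPM.

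A handful of cells carried most of this RNA. In the KO library the 5 cells with the most held 26413, 8312, 8128, 8018 and 6729 member UMIs, together 46.4% of those in cells. The WT library's top 5 held 24465, 18964, 13900, 11175 and 10590, together 41.2%. All 10 of these cells were Paneth-like. In the highest KO cell the 4 genes were 27.3% of all UMIs, and in the WT library the highest share of a cell was 35.1%. It took 6 KO cells and 7 WT cells to reach 50% of the UMIs, and 43 KO cells and 132 WT cells to reach 90%. The highest single cell held 34.9% of the KO and 21.5% of the WT Defa21 UMIs, and 31.7% of the KO and 25.5% of the WT Defa22 UMIs. For Defa24 it held 18.1% in KO and 8.49% in WT, and for Defa17 9.90% in KO and 8.43% in WT.

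**Figure D2:**
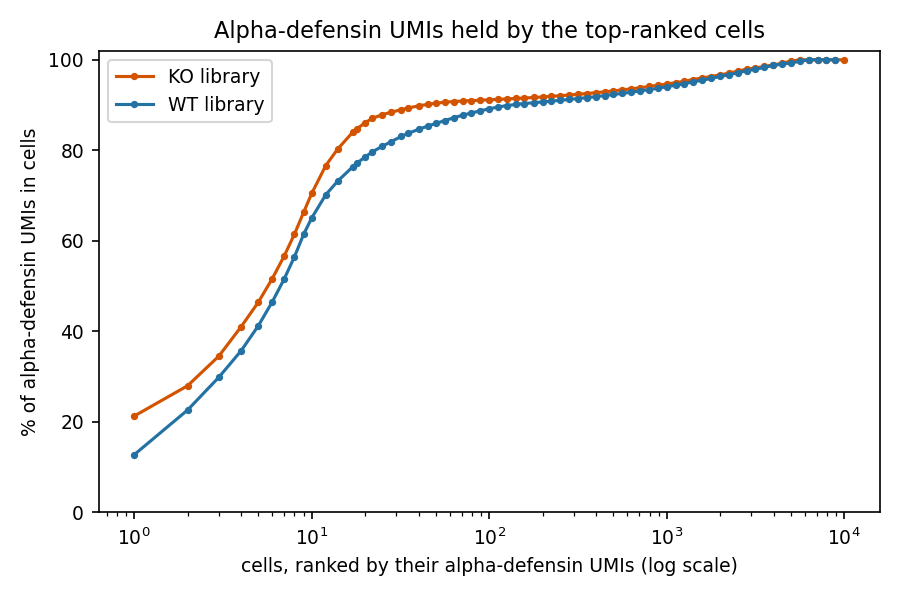
Cumulative share of the alpha-defensin UMIs in cells (y axis, %) against the number of cells counted from the highest down (x axis, log scale), for the KO and the WT library. The top 10 cells hold 70.5% in the KO library and 65.0% in the WT library. The top 20 hold 86.1% in KO and 78.5% in WT, and both curves flatten after about that many cells.

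Most Paneth-like cells, by contrast, held few member UMIs. The median Paneth-like cell had 4 summed member UMIs in the KO library and 11.5 in the WT library. The interquartile range was 1.5 to 56.5 in KO and 2 to 118 in WT cells. There were 22 KO cells (13.5%) and 18 WT cells (7.20%) with none, while 36 KO and 70 WT cells had 100 or more and 16 KO and 18 WT cells had 1000 or more. For Defa24 the median was 2 UMIs in KO and 6 in WT cells. For Defa17 and Defa21 it was 0 in KO and 1 in WT cells, and for Defa22 it was 1 in both. Lyz1 was found in more of these cells, and only 0 KO and 2 WT Paneth-like cells were without it. Its median was 387 UMIs in KO and 77 UMIs in WT Paneth-like cells. Its interquartile range was wide too, 38.5 to 1338.5 in KO and 13 to 618.75 in WT cells. These are counts, not scaled to the depth of a cell. Lyz1 led the subcluster and features named Defa were left out of the clustering. The choice of cells thus in part sets how few lack Lyz1.

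Lyz1-high epithelial cells, with Lyz1 at 50 or more per 10000 UMIs, were the main carriers but many of them carried little. They numbered 131 in the KO and 196 in the WT library, and 116 KO and 180 WT of them were Paneth-like. They held 92.9% of the epithelial member UMIs in the KO library and 83.5% in the WT library. Inside this group the 4 genes summed to 33495 CPM in KO and 45909 CPM in WT cells, and in the other epithelial cells to 94.2 CPM in KO and 320 CPM in WT cells. Yet 18 KO cells (13.7%) and 14 WT cells (7.14%) of the Lyz1-high group had no member UMI. Under 10 UMIs were found in 71 KO cells (54.2%) and 67 WT cells (34.2%).

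Some cells held many member UMIs beside little Lyz1. The WT cell at rank 5 held 10590 member UMIs and 117 Lyz1 UMIs, 26.9 per 10000. A stem- or progenitor-like WT cell held 3470 member UMIs beside 45 Lyz1 UMIs. Across the cells with 100 or more member UMIs, the rank correlation (Spearman) of their summed level with the Lyz1 level was 0.11 in 41 KO cells and 0.28 in 79 WT cells. Over all Paneth-like cells it was 0.42 in the KO library (163 cells) and 0.52 in the WT library (250 cells). Cells of a library share its free RNA and both levels are set on the same UMI total of the cell. Lyz1 has a close relative, Lyz2 of myeloid cells, and the split of reads between them was not tested.

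**Figure D3:**
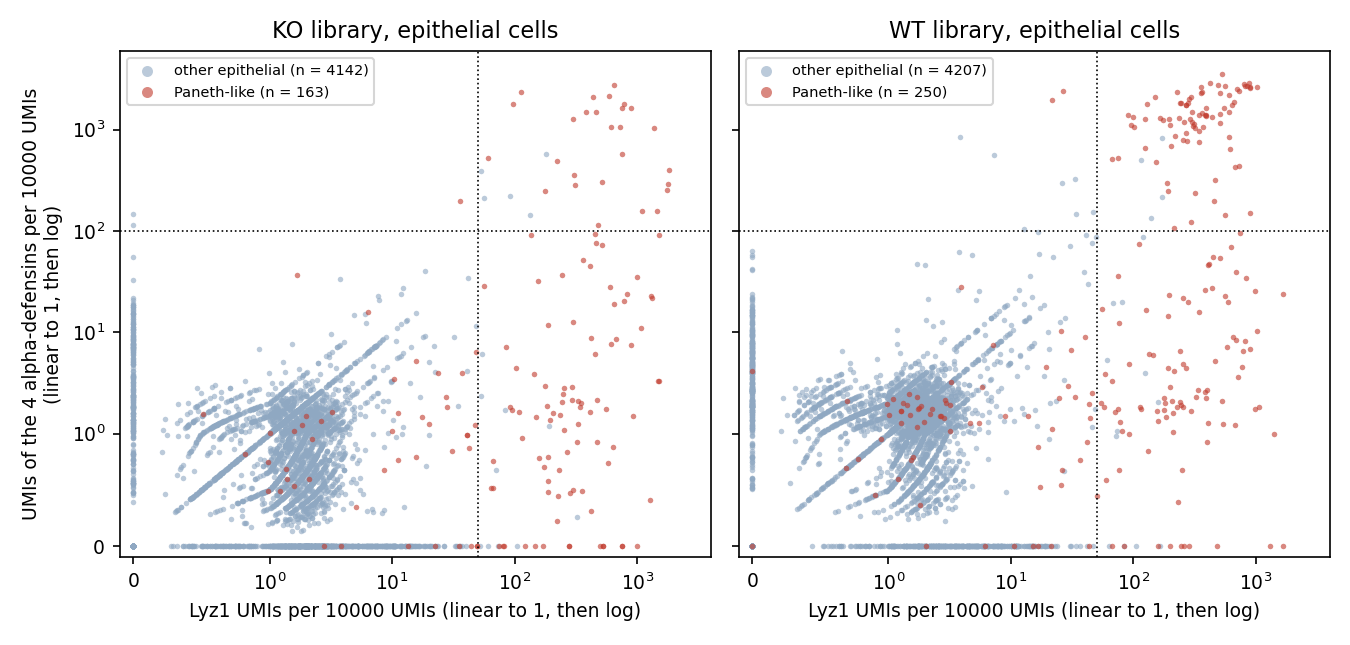
Each point is an epithelial cell, with Lyz1 UMIs per 10000 UMIs on the x axis and UMIs of the 4 alpha-defensins per 10000 on the y axis (both linear to 1, then log), KO library left and WT library right. Dotted lines mark 50 per 10000 for Lyz1 and 100 per 10000 (1%) for the defensins. In both libraries Paneth-like cells with high Lyz1 spread over the whole range of defensin levels, and the WT library has more points at the top right.

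Cells in which the 4 genes made up 1% or more of the UMIs numbered 36 in the KO library, 0.341% of cells (0.239 to 0.472), and 101 in the WT library, 1.02% (0.832 to 1.24). The 36 KO cells held 88.8% and the 101 WT cells 88.3% of the member UMIs in cells. Of them 32 KO and 91 WT cells were also at the Lyz1 level above, and 28 KO and 85 WT cells were Paneth-like. Among kept cells, the difference in number lay mostly among barcodes with few UMIs. With 10000 or more UMIs there were 24 such cells in the KO library and 27 in the WT library. In KO epithelial cells of that depth this was 0.727% (0.466 to 1.08, of 3303 cells), and in WT epithelial cells 0.820% (0.541 to 1.19, of 3294 cells). Under 3000 UMIs there were 4 KO and 60 WT barcodes. Their median depth over all depths was 28062 UMIs in the KO and 1779 UMIs in the WT library.

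The WT barcodes of low depth held little of the RNA but many of the cells. Those under 1000 UMIs held 1.62% of the member UMIs in WT cells and those from 1000 to under 3000 UMIs 3.05%, against 79.5% in the cells with 10000 or more UMIs. In the KO library the same depths held 0.118%, 0.164% and 87.5%. Of the 33 WT Paneth-like barcodes under 1000 UMIs, 31 reached 1%, as did 20 of the 38 from 1000 to under 3000 UMIs. Among barcodes of 10000 or more UMIs, 22 of 131 KO and 23 of 150 WT Paneth-like cells did. A further 10 KO and 71 WT barcodes with 500 or more UMIs and the genes at 1% or more had not been kept as cells. Of these, 4 KO and 19 WT barcodes had been removed as doublets. Kept or not, 28 KO and 39 WT barcodes with 10000 or more UMIs reached 1%. The near-equal numbers at that depth thus hold only after the filters.

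These low-depth WT barcodes were alike in their mix of the 4 genes. Of 54 with at least 50 member UMIs, 51 had another with all 4 shares within 5 percentage points, while 15 of 24 deep KO cells and 15 of 27 deep WT cells had one. Linked in this way, 30 barcodes formed a set with Defa24 at 72.5% to 85%, and 17 another with Defa24 at 50% to 65.9% and Defa21 at 15.4% to 30%. The closest pair of the 54 barcodes differed at 6 of their bases. The sets were drawn after the values were seen, and whether several of these barcodes come from 1 cell or its fragments was not tested. Counts of defensin-rich cells are therefore given here with the depth beside them.

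**Figure D4:**
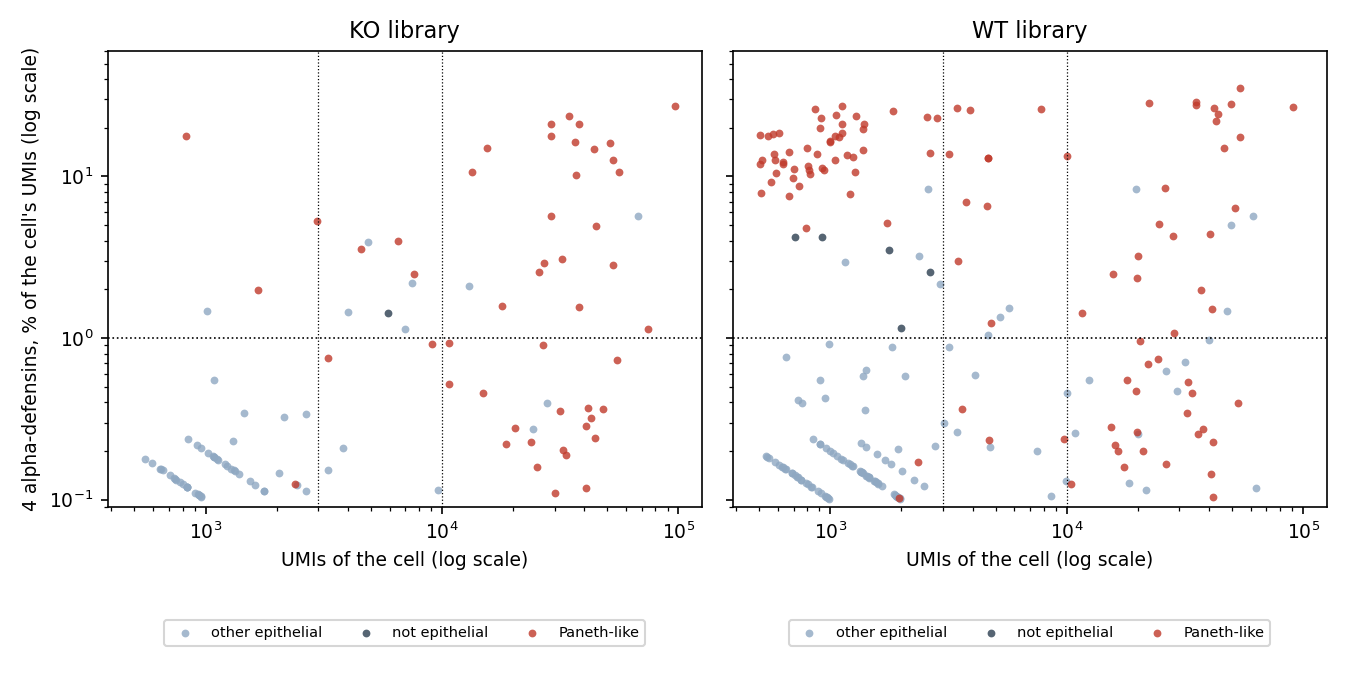
Share of a cell's UMIs that came from the 4 alpha-defensins (y axis, log scale, from 0.1%) against the cell's UMIs (x axis, log scale), KO library left and WT library right; cells outside the epithelium are drawn only at 1% or more. Dotted lines mark 1%, 3000 UMIs and 10000 UMIs. Above 10000 UMIs there are 24 KO and 27 WT points over 1%, and below 3000 UMIs 4 KO and 60 WT points.

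Outside the Paneth-like subcluster 8 KO and 16 WT cells reached 1%. The KO cells were 3 goblet-like, 2 stem- or progenitor-like, 2 epithelial cells in subclusters without a name and 1 B cell. The WT cells were 5 goblet-like, 2 stem- or progenitor-like, 4 epithelial without a name and 5 neutrophils. The highest were a KO cell without a sub-type name with 3862 member UMIs and the WT stem- or progenitor-like cell with 3470. A WT goblet-like cell followed with 2486, of which 2210 were Defa24. The 5 neutrophil barcodes had 23 to 68 member UMIs among 707 to 2643 UMIs and carried Lyz1 too. Their doublet scores lay between 0.033 and 0.050, against a WT median of 0.029. The KO cell with 3862 member UMIs scored 0.075, and the KO stem- or progenitor-like cells 0.075 and 0.071, against a KO median of 0.032. The WT goblet-like cells with 2486 and 1629 scored 0.059 and 0.072, and the WT stem- or progenitor-like cell with 3470 scored 0.032. Whether these barcodes hold RNA of a second cell was not tested. Removal of the highest doublet scores took out 1082 KO barcodes with 5873 member UMIs, 3.97% of the KO total, and 938 WT barcodes with 37499, 14.8% of the WT total. Of those WT UMIs, 31411 were Defa24.

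Alpha-defensin RNA was also found free of cells. Barcodes with under 100 UMIs, which hold no cell, carried 12188 member UMIs in the KO library (1326 CPM, 1303 to 1350) and 14742 in the WT library (1645 CPM, 1618 to 1672). Defa24 made up 64.0% of them in the KO library and 63.6% in the WT library. Defa22 was 19.1% in KO and 18.3% in WT free RNA, Defa21 10.4% in KO and 12.8% in WT, and Defa17 6.47% in KO and 5.25% in WT. In the Paneth-like cells Defa24 was 67.1% of the member UMIs in KO and 65.5% in WT, and Defa22 19.8% in KO and 19.4% in WT. Defa21 was 6.09% there in KO, below its share of KO free RNA, and 10.9% in WT, and Defa17 was 6.92% in KO and 4.27% in WT. Per Lyz1 UMI there were 0.801 member UMIs in KO and 1.29 in WT free RNA, against 0.675 in KO and 1.17 in WT Paneth-like cells.

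Because of this free RNA, a single UMI says little about a cell. At least 1 member UMI was found in 51.0% of KO cells (50 to 51.9) and 63.6% of WT cells (62.7 to 64.6). Neutrophils, which should lack these genes, carried one in 28.5% of KO cells (median depth 1843 UMIs) and 38.2% of WT cells (2405 UMIs). For T or NK cells it was 36.6% in KO (3254 UMIs) and 46.4% in WT (3506.5 UMIs). Epithelial cells other than Paneth-like, far deeper, carried one in 73.4% of KO cells (18839 UMIs) and 82.1% of WT cells (19566 UMIs). Thinned to 1000 UMIs a cell, these epithelial cells stood at 10.7% in KO and 16.7% in WT, not above the neutrophils at 16.7% in KO and 17.5% in WT. This left out 135 KO and 181 WT epithelial cells and 241 KO and 152 WT neutrophils as too shallow. Thinned Paneth-like cells stood at 36.6% in KO and 49.3% in WT, without 2 KO and 33 WT cells that were too shallow. Of those 33 WT cells, 31 had the members at 1% or more of their UMIs.

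Outside the Paneth-like subcluster the level was low. Epithelial cells there stood at 142 CPM in KO and 252 CPM in WT cells, 10.7% of the KO and 15.3% of the WT free RNA level. Immunoglobulin RNA, which epithelial cells do not make, stood in the same cells at 14.7% of its KO and 9.74% of its WT free RNA level, so the members lay below this marker of free RNA in the KO and above it in the WT library. Without the 7 KO and 11 WT cells at 1% or more, a choice made on the member level itself, the members stood at 90.2 CPM in KO and 159 CPM in WT cells. That was 6.81% of free RNA in KO and 9.68% in WT, beside immunoglobulin at 14.7% and 9.74%. The members lay above immunoglobulin in WT only with those 11 cells included. Within the KO epithelium, immunoglobulin stood at 60.3% of free RNA in goblet-like and 11.0% in stem- or progenitor-like cells. In neutrophils the members were at 13.8% and immunoglobulin at 18.1% of free RNA in the KO library, and at 15% and 15.5% in the WT library. The stem- or progenitor-like, absorptive and cycling subclusters lay between 83.1 and 98.9 CPM in the KO library and between 142 and 231 CPM in the WT library. The highest of these, the WT stem- or progenitor-like cells at 231 CPM, had 3470 of 13995 member UMIs in 1 cell. Of the cells named cycling, 367 KO and 110 WT were in a subcluster led by Adh1, Sycn and Muc3, so that name is uncertain. KO goblet-like cells stood at 147 CPM, with 164 of 934 member UMIs in the highest cell. In some subclusters a few cells held most of the UMIs. The KO epithelial cells without a sub-type name stood at 406 CPM, with 3862 of their 5127 member UMIs in 1 cell. The WT goblet-like cells stood at 3310 CPM, with 2486 and 1629 of their 4648 in 2 cells. The 14 WT enteroendocrine-like cells stood at 324 CPM, with 46 of their 70 in 1 cell.

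Paneth-like cells with 1 of the 4 genes often had another, also at equal depth. Of cells with any of the 4 genes, 33.7% of KO and 46.2% of WT cells had 2 or more of them, and 1.66% of KO and 4.05% of WT cells had all 4. In Paneth-like carriers 73.8% of KO and 77.6% of WT cells had 2 or more, and 24.1% of KO (34 cells) and 41.4% of WT (96 cells) had all 4. Where 3 UMIs were asked of each gene, all 4 were found in 22 KO cells, 20 of them Paneth-like, and in 73 WT cells, 67 of them Paneth-like. Of other epithelial carriers, close to the Paneth-like cells in depth, 45.2% in KO and 61.1% in WT had 2 or more, and of the far shallower neutrophils 8.53% in KO and 15.9% in WT. Thinned to 1000 UMIs a cell, 2 or more were found in 61.0% of KO (47.4 to 73.5) and 57.0% of WT (47.1 to 66.5) Paneth-like carriers. For other epithelial carriers it was then 4.42% in KO and 7.60% in WT, and for neutrophils 3.99% in KO and 7.30% in WT. Cells under 1000 UMIs were left out, among them 2 KO and 33 WT Paneth-like cells. Thinning evens the total UMIs of a cell but not the member level, which stays far higher in Paneth-like cells. A carrier with few member UMIs can seldom show 2 genes, so these shares cannot separate joint expression from abundance. Among cells with a single gene, that gene was Defa24 in 2669 of 3562 KO and 2634 of 3385 WT cells.

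The balance of the 4 genes differed widely from cell to cell. Among cells with 100 or more member UMIs (41 KO and 79 WT cells, 36 and 70 of them Paneth-like), all 4 genes were found in 29 KO and 69 WT cells. Defa24 was the leading gene in 32 KO and 66 WT cells, with a median share of 75.7% in KO and 73.4% in WT and a range of 0.730% to 100% in KO and 0.917% to 100% in WT. Defa22 led in 4 KO and 8 WT cells and reached 81.1% in a KO and 92.0% in a WT cell. Defa17 led in 5 KO and 1 WT cells and reached 93.4% in KO and 56.3% in WT. Defa21 led in 0 KO and 4 WT cells, and reached 28.4% in KO and 84.4% in WT. Of its 91-base stretches, Defa24 shares 0.0% with another defensin transcript and Defa17 90.9%, so these shares across genes are uncertain. The part that shared stretches play in them was not tested.

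Defa21 and Defa22, the near-identical pair, were also the pair whose levels ran most closely together over these KO cells, with a rank correlation of 0.82. In the WT cells it was 0.75, and 0.76 for Defa17 with Defa24. The other pairs lay between 0.35 and 0.58 in KO cells and between 0.47 and 0.55 in WT cells. As shares of a cell's member UMIs, Defa22 and Defa24 ran against each other (-0.69 in KO, -0.85 in WT), as shares of 1 total must in part do. The 2 highest cells show the spread. The KO cell had 15040 Defa24, 7669 Defa22, 2866 Defa21 and 838 Defa17 UMIs, and the WT cell had 10667, 9441, 3866 and 491. In the KO cell at rank 9 Defa24 had 5407 of 5940 member UMIs and Defa21 had 7, so the pair of Defa21 and Defa22 was nearly absent there. How far reads of 1 gene were counted for its twin was not tested.

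**Figure D5:**
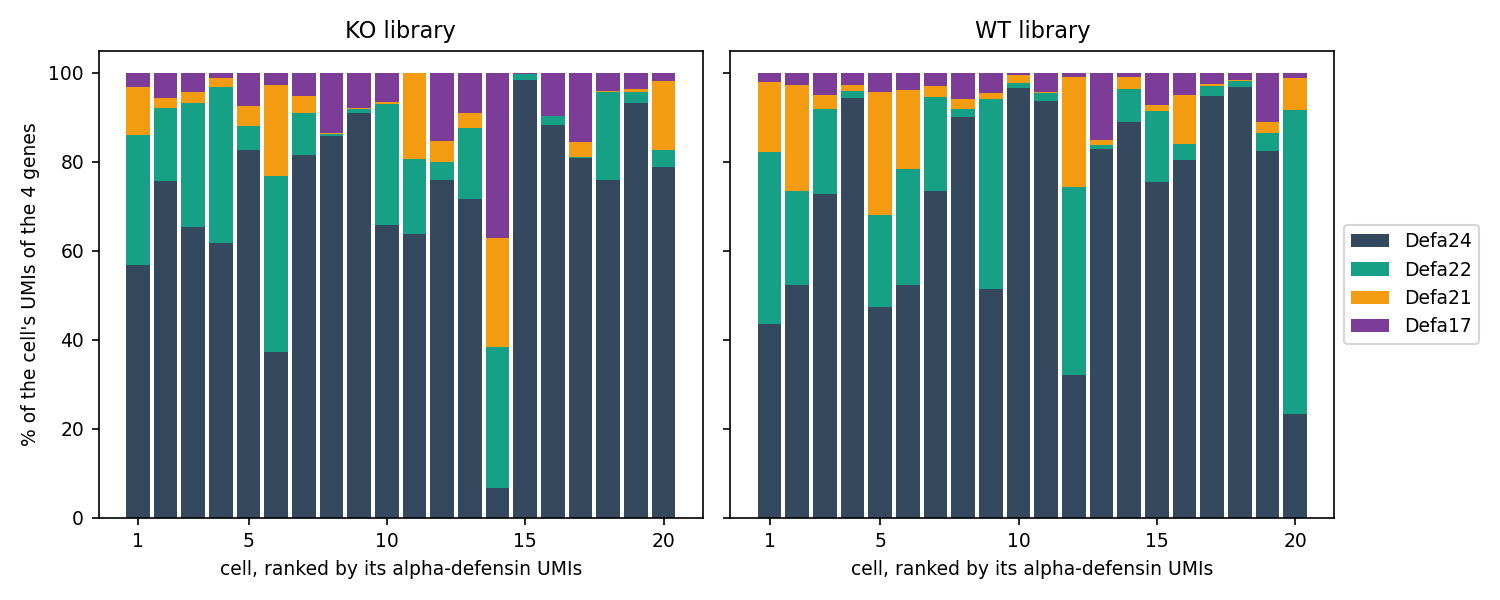
Share of each of the 4 genes in the alpha-defensin UMIs of a cell (y axis, %) for the 20 cells with the most such UMIs in the KO library (left) and the WT library (right), ranked from the highest. Defa24 is the largest part of most bars, the Defa22 part ranges from 0.139% to 39.7% in KO and from 0.978% to 68.4% in WT bars, and the Defa21 part stays at or below 24.5% in KO and 27.6% in WT bars.

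Between the libraries, the epithelial level was lower in the KO library for Defa21, Defa22 and Defa24 and near equal for Defa17. Summed, the 4 genes had 120824 UMIs in KO and 187088 in WT epithelial cells, 1280 CPM (1273 to 1287) and 1877 CPM (1869 to 1886), a log2 ratio of KO over WT of -0.55 (-0.56 to -0.54). Defa21 alone lay beyond 1.5-fold. It stood at 84.5 CPM in KO and 206 CPM in WT epithelial cells, a log2 ratio of -1.29 (-1.32 to -1.25). Thus 1 of the 4 genes was lower beyond 1.5-fold, as were 11.3% of all 18558 genes with 20 or more UMIs, and 0 of 4 were higher, as were 7.21% of all genes.

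Defa24 stood at 858 CPM in KO and 1227 CPM in WT epithelial cells, a log2 ratio of -0.52 (-0.53 to -0.50). Defa22 stood at 251 CPM in KO and 364 CPM in WT, a log2 ratio of -0.54 (-0.56 to -0.52). Defa17 stood at 86.9 CPM in KO and 79.6 CPM in WT, a log2 ratio of 0.13 (0.082 to 0.17). The median of the 4 ratios was -0.53, beside -0.060 over all genes. Lyz1 went the other way, at 1906 CPM in KO and 1591 CPM in WT, a log2 ratio of 0.26. The ratio of defensin to lysozyme UMIs in the epithelium was 0.672 in KO and 1.18 in WT cells.

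Within the Paneth-like cells alone the ratios were much the same. The 4 genes summed to 25210 CPM in KO and 36778 CPM in WT cells, a log2 ratio of -0.54. Defa24 was at 16928 CPM in KO and 24081 CPM in WT (-0.51), and Defa22 at 5002 CPM in KO and 7123 CPM in WT (-0.51). Defa21 was at 1534 CPM in KO and 4005 CPM in WT (-1.38), and Defa17 at 1746 CPM in KO and 1569 CPM in WT (0.15). Here too 1 of 4 was lower and 0 of 4 were higher beyond 1.5-fold, as were 8.67% and 6.28% of 11725 genes. In free RNA, Defa17 was at 85.9 CPM in KO and 86.4 CPM in WT, and Defa21 at 138 CPM in KO and 210 CPM in WT.

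These ratios rest on few cells. Without the 5 highest cells of each library, Defa21 was at -0.93, Defa22 at -0.88, Defa24 at -0.72 and Defa17 at 0.19, so 3 of the 4 genes were then lower beyond 1.5-fold. The same number was lower with free RNA subtracted, with every barcode of 500 UMIs and outside the Paneth-like cells, and 2 were lower without doublet removal, where Defa24 was at -0.78. As a mean of per-cell shares, in which the shallow WT barcodes count as much as deep cells, the sum was at -1.90 and Defa17 at -1.05, with 4 of 4 genes lower beyond 1.5-fold. With cells of 10000 or more UMIs only, the sum was at -0.44.

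The Paneth-like cells rich in alpha-defensins had more RNA of most other measured Paneth products than the rest of the subcluster. Those at 1% or more (28 KO and 85 WT cells) were set against the other Paneth-like cells of the same library, with all defensin UMIs taken out of the totals. In the richer cells the 4 genes were 11.7% of KO and 16.6% of WT UMIs, and in the others 0.0776% of KO and 0.0798% of WT UMIs. Of 11 measured Paneth and deep crypt secretory products of a fixed list, 8 were higher beyond 1.5-fold in both libraries and 0 were lower, beside 2.07% higher and 8.42% lower of 9859 genes. Intelectin (Itln1), a lectin that binds microbial sugars, stood at 15418 against 1340 CPM in the KO library, a log2 ratio of 3.52, and at 10672 against 1650 CPM in the WT library, 2.69. Angiogenin 4 (Ang4), an antimicrobial ribonuclease, was at a log2 ratio of 1.98 in KO and 1.66 in WT, and colipase (Clps), a cofactor of lipases, at 2.27 and 1.63. Lyz1 was at 1.5 in KO and 1.44 in WT. Reg3g, a lectin against Gram-positive bacteria, was at 1.08 in KO and 0.99 in WT. Reg4 lay under 1.5-fold (0.46 in KO and 0.45 in WT), Reg3b was at 0.55 in KO and -0.34 in WT, and Mptx1 was at 0.30 in KO and -0.70 in WT. Of the 8, Mptx2 rested on 14 KO and 31 WT UMIs in the defensin-rich cells. Pnliprp2, also among the 8, stood at 330 CPM in KO and 314 CPM in WT defensin-rich cells. Outside the subcluster, in other epithelial cells, Pnliprp2 stood at 143 CPM in KO and 214 CPM in WT.

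On the same scale, log2 of defensin-rich over other Paneth-like cells, Mmp7 was at 0.83 in KO and 0.25 in WT. Among 7 secretory fate genes 0 were higher and 2 were lower beyond 1.5-fold in both libraries, beside the 8.42% lower over all genes. They were Atoh1, the factor that sets secretory fate (-0.67 in KO and -0.99 in WT), and Gfi1 (-0.93 and -1.03). Gfi1 had 5 UMIs in KO and 9 in WT defensin-rich cells, and its KO interval there (2.17 to 15.6 CPM) overlapped that of the other KO cells (9.20 to 17.1 CPM). Hoxb13, a gene of the colonic list which marks the distal colon, was at 91 CPM in KO and 90.9 CPM in WT defensin-rich cells. Of 10 small intestinal absorptive genes, 8 in the KO and 9 in the WT library had no UMI in the defensin-rich cells, and the highest was at 10.7 CPM in KO and 3.95 CPM in WT. Of 6 Wnt targets, 0 were beyond 1.5-fold in both libraries. The WT cells at 1% or more had a median of 1288 UMIs, the KO ones 30550 UMIs, and the part of depth in these ratios was not tested. The subcluster was itself built from genes such as Lyz1, Ang4 and Itln1.

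The genes that varied most like the 4 over all cells were mostly other defensins. They were ranked among 15804 genes by the lower of the KO and WT correlations (Pearson's r over 10546 KO and 9892 WT cells, log scale) with the summed members. Defa36 came first, with 0.34 in KO and 0.55 in WT, followed by Defa34 (0.31 and 0.47), Defa3 (0.29 and 0.49), Defa5 (0.28 and 0.55) and Gm15293 (0.27 and 0.55). Defa26, Defa35, Defa20, Defa32 and Defa23 followed at 0.19 to 0.26 for the lower of the 2. The 2 of the first 12 that are not defensins were Clps (0.23 in KO and 0.39 in WT) and Agt, angiotensinogen (0.19 and 0.28). The Paneth-like subcluster held 71.0% of the KO and 78.3% of the WT Clps UMIs in cells, and 60% of the KO and 68.5% of the WT Agt UMIs. These values are low, share the free RNA of their library and reads of like sequence, and are a description only.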

How the data were processed

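Each library was made from digested colon tumours with 10x Genomics 3' chemistry (v3), per the labels. The deposited matrices hold UMI counts, whole numbers per gene and barcode, for every barcode; per the file headers the authors wrote them with Cell Ranger 4, and per the submitters' processing notes the build was mm10 and Seurat was used, in a role not given there. The annotation release and read length are not stated in the labels or file headers.

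Barcodes of 500 or more UMIs were tested against free RNA (barcodes under 100 UMIs, 10000 Monte Carlo draws, FDR 0.001), and those above 10000 UMIs were kept untested. Filters asked for at least 200 genes and at most 25% mitochondrial UMIs, then removed the highest Scrublet scores at 0.8% per 1000 cells. Both libraries were clustered together (2000 variable genes without features named Defa, 30 components, 15 neighbours, Leiden resolution 1, epithelial subclusters 0.6) and named from fixed markers; Pla2g2a was not analysed here. Clustering used scanpy 1.11.5 with leidenalg 0.10.2, igraph 0.11.9 and scikit-learn 1.9.0. Statistics used scipy 1.17.1, pandas 2.3.3 and numpy 2.4.6 under Python 3.11.15, and figures matplotlib 3.10.9.

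A level is the sum of a gene's UMIs over the cells of a class in a library, as CPM of all UMIs there, and has an exact Poisson interval; ratios carry exact conditional binomial intervals and shares Clopper-Pearson intervals, all 95%, for counting error only, since cells are not replicates. A named gene at 0 in either group was given no ratio, and the set floor of 3 counts was not applied to it. Cell calling and ratios were tested on simulated data. Named genes are the 4 members, Lyz1, the other Defa features, the fixed lists, and the 12 genes with the highest lower correlation among those with 50 or more UMIs per library. Of the colonic list, 1 gene is not reported here. The members and lists were chosen with earlier results of these data known. Coordinates and transcripts are from GENCODE vM21 and promoters from RefSeq (GRCm38.p6). Other settings of calling, doublets, clustering, scaling and thresholds were tried as alternatives.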

Additional observations from a re-analysis of the deposited data

How the results depend on the processing

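The summed epithelial log2 ratio of KO over WT (-0.55) stayed below 0 under every alternative run. It was -0.60 with every barcode of 1000 UMIs, -0.64 with 500 UMIs, -0.51 with a 10% mitochondrial limit, -0.76 without doublet removal, -0.53 without mitochondrial and ribosomal protein genes, -1.90 as a mean over cells, -0.66 with free RNA subtracted and -0.49 with median-of-ratios scaling. With every cluster that scored highest for epithelial markers it was -0.55. Among settings chosen after seeing the data it was -0.69 without the 5 highest cells of each library, -0.54 in Paneth-like cells, -0.83 in the other epithelial cells and -0.44 at 10000 or more UMIs. Defa17 (0.13) turned to -0.21 without doublet removal, -1.05 as a mean over cells and -0.35 outside the Paneth-like cells; Defa21, Defa22 and Defa24 kept their sign in all 13 settings. Defa30 in Paneth-like cells (0.22) turned to -0.12 without the top cell of each library. The cause of these shifts was not tested.

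The epithelial share of member UMIs (97.4% in KO, 97.5% in WT) was 96.0% and 97.2% without doublet removal, 97.3% and 97.2% with every barcode of 500 UMIs, 95.1% and 95.7% without the 5 highest cells and 99.4% and 99.2% at 10000 or more UMIs. In WT it was 97.6% with defensin genes kept in the clustering and 97.2% with each library clustered alone. The Paneth-like share (87.1% in KO, 85% in WT) was 75.9% and 74.4% without the 5 highest cells and 89.6% and 86.0% at 10000 or more UMIs; subclusters were made only with the main settings. With defensin genes kept, a cluster of 21 KO and 88 WT cells held 261827 member UMIs.

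Cells with a member UMI (51.0% in KO, 63.6% in WT) were 14.3% and 27.6% at 3 UMIs, 13.7% and 17.2% after thinning, 52.5% and 65.1% without doublet removal and 48.3% and 59.4% with every barcode of 500 UMIs. Cells with 10 or more member UMIs (103 in KO, 391 in WT) numbered 1510 and 2733 at 3 UMIs, 59 and 133 at 30 UMIs, 36 and 101 at 1% of UMIs, and 24 and 27 at 1% with 10000 or more UMIs. Carriers with 2 or more genes (33.7% in KO, 46.2% in WT) were 10.7% and 15.9% at 3 UMIs and 6.90% and 10.2% after thinning. The free RNA level (1326 CPM in KO, 1645 CPM in WT) was 934 and 2104 CPM under 10 UMIs and 1198 and 1828 CPM in uncalled barcodes of at least 100 and under 500 UMIs. Lyz1-high cells (92.9% of epithelial member UMIs in KO, 83.5% in WT) held 90.0% in WT at 20 per 10000, and 92.0% and 81.7% at 100 per 10000.

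No paired analysis was possible because each genotype has 1 library. A single member UMI in a cell cannot be told from free RNA at any depth seen here.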

Other observations

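Most other defensin features were lower in KO than in WT Paneth-like cells. Of 15 Defa features with a UMI in both, 12 were lower in KO, 11 of them with an interval below 0, and 3 were higher, of which Defa2 rested on 6 UMIs in KO and 5 in WT. How many of all genes were lower, or had an interval below 0, was not counted. The median log2 ratio of KO over WT of all 11725 genes in Paneth-like cells was -0.043. Features of like sequence in the same subcluster are not separate observations. Without the cell of each library with most UMIs of the gene, a choice made after seeing the data, 13 of 14 features with 20 or more UMIs were lower. Defa30 was the most abundant of them, at 8707 CPM in KO and 7452 CPM in WT Paneth-like cells, a log2 ratio of KO over WT of 0.22 (0.20 to 0.25), but 13534 of its 37321 KO UMIs lay in 1 cell, and without the top cell of each library the ratio was -0.12. Defa29 had 585 UMIs in KO and 140 in WT Paneth-like cells, a log2 ratio of 2.11 (1.84 to 2.39). Of these, 427 lay in 1 KO cell and 82 in 1 WT cell; without both, 158 UMIs in KO and 58 in WT remained, a log2 ratio of 1.51 (1.07 to 1.97), and without the KO cell alone the counts were 158 in KO and 140 in WT. Defa36 stood at 558 CPM in KO and 1103 CPM in WT cells (-0.98), Defa34 at 106 CPM in KO and 231 CPM in WT (-1.12), and Defa3, which shares most of the Defa17 sequence, at 158 CPM in KO and 256 CPM in WT (-0.70). Defa23 had 59 UMIs in KO and 244 in WT cells (-2.0), and Defa27 48 and 180 (-1.86). Defa35 (-0.71), Defa26 (-1.03), Defa20 (-0.34), Defa32 (-0.63), Defa28 (-0.74) and Defa25 (-0.95) were also lower in KO, and Defa5 lay at -0.11. Defa31 and Defa37 had 0 UMIs in both libraries. Each of these genes has close relatives, so the split of reads between them was not tested, and these intervals cover counting error only.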
